A study of Homo sapiens with 6 samples.

Results

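The 9 genes described here act in the making, carriage and sensing of retinoic acid: the dehydrogenases ALDH1A3 and ALDH1A1, the reductase DHRS3, the binding protein CRABP2, and the nuclear receptors RARA, RARB, RARG, RXRA and RXRB. They were found by Ensembl identifier among the 39168 identifiers of the deposited tables, and each occupied a single row. ALDH1A3 was chosen because it decreased with erianin in these same libraries, so its values are given as a description without a test, whereas the other 8 genes were taken for their place in the pathway. CAL62, a wild-type human anaplastic thyroid carcinoma cell line, was treated for 48 h with 50 nM erianin, a natural bibenzyl from Dendrobium orchids, or with an equal concentration of DMSO. RNA sequencing was done on 3 libraries per group. All libraries came from this single line at a single dose and time, and nothing in the labels says whether replicates came from separate cultures, so p-values measure only the spread between these libraries. In bulk RNA, fewer cells expressing a gene and less RNA per cell cannot be told apart.

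Retinoic acid is made from vitamin A in 2 oxidation steps, from retinol to retinal and then, irreversibly, from retinal to retinoic acid by the ALDH1A enzymes. CRABP2 carries retinoic acid to retinoic acid receptors (RARs), which pair with retinoid X receptors (RXRs) on DNA and switch from repression to activation when retinoic acid binds. Several target genes, among them RARB, CYP26A1 and DHRS3, feed back on the pathway, and ALDH1A3 is widely used as a marker of aldehyde dehydrogenase activity in tumour cells.

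The libraries held 25776301 to 34107727 reads on named genes. DMSO replicate 3 stood apart from the rest. Its distance in log2 counts-per-million (CPM, scaled by TMM factors) was 67.8 and 65.7 to the other DMSO libraries, which were 41.3 from each other, and the erianin libraries lay 29.6 to 30.6 from each other. Leaving it out lowered the biological coefficient of variation over all genes from 0.139 to 0.0421, and several results that turn on it are given both ways below. Low counts were unusual in that 64.5% to 69.5% of counts from 1 to 20 were even numbers, against 49.0% to 51.1% of counts of 1000 or more, so counting intervals and floors cover counting error only. Of the thyroid markers, PAX8 was abundant and fell from 676 ± 55.2 to 428 ± 7.88 CPM (SD, n = 3; edgeR quasi-likelihood test with Benjamini-Hochberg adjustment, adjusted p = 0.00403). TG, TSHR, SLC5A5 and NKX2-1 were at 0 or below the count filter, and so were the blood and vessel markers PTPRC, CD68 and PECAM1. VWF, the last of those markers, had 2, 6 and 4 reads with DMSO and 10, 17 and 14 reads with erianin, a log2 fold change of 1.51 (adjusted p = 0.0621), and its part in the results was not tested.

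RARs and RXRs bind direct repeats of a 6-base half-site, most typically spaced by 5 bases. The windows of RARB and CYP26A1 are shown because they were the only windows of retinoid genes with such a repeat, and both genes are classical retinoic acid targets. Those of ALDH1A3 and ALDH1A1 are shown because these enzymes catalyse the same step and ALDH1A3 was far above ALDH1A1 in TPM. The sequences come from RefSeq (GRCh38.p14) and cover the 250 bases before an annotated transcription start, read 5′ to 3′ along the gene. Capitals mark the repeat in RARB and CYP26A1 and each GGGCGG match, the GC box, on either strand in ALDH1A3 and ALDH1A1.
RARB, chr3:25428013-25428262, + strand: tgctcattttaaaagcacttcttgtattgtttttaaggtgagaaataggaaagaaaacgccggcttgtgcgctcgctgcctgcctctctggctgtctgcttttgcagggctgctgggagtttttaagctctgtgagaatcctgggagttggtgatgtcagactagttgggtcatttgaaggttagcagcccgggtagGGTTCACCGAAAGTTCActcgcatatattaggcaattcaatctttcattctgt
CYP26A1, chr10:93073643-93073892, + strand: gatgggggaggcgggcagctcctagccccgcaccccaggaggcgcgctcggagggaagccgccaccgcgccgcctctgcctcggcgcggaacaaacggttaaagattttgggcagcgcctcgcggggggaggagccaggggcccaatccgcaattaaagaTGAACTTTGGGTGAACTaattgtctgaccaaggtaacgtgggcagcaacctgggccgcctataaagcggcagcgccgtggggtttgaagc
ALDH1A3, chr15:100879581-100879830, + strand: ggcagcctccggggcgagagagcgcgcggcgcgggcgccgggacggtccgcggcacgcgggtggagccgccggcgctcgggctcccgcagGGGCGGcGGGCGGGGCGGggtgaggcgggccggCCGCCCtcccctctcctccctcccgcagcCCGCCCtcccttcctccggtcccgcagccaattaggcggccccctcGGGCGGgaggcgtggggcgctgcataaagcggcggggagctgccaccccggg
ALDH1A1, chr9:72953054-72953303, - strand: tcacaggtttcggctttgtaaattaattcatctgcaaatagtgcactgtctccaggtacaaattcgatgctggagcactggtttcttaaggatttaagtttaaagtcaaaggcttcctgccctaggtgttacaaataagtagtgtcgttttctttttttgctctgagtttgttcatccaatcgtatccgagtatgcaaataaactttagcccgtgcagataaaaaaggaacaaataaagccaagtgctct

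Motifs were counted in windows of 300 bases, from 250 before to 50 after the start. The half-site letters searched were AGGTCA, the consensus, then its variant AGTTCA, further GGGTCA and lastly GGTTCA. A pair of these in the same direction with 5 bases between them, on either strand, occurred in 31 of 35116 windows, or 0.0883%. All 9 members had a window, 18 windows in all, and 44 retinoid genes had 74 windows. The repeat began 53 bases before the start in RARB and 90 bases before it in CYP26A1. Repeats with 0 to 4 or 6 to 8 bases between the half-sites were found in none of the 74 windows. A single half-site was found in 38.6% of all windows and in neither the ALDH1A3 nor the ALDH1A1 window. The printed ALDH1A3 sequence had a GC content of 82.4% and 6 GGGCGG matches, whereas that of ALDH1A1 had 38.4% and none. GGGCGG was present in 45.0% of all windows. These are matches of letters and say nothing about binding in these cells.

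ALDH1A3 (ENSG00000184254, chr15:100877714-100916626, + strand, GRCh38, GENCODE 29), which oxidises retinal to retinoic acid, was at 189, 190 and 191 CPM in the DMSO libraries and at 112, 105 and 104 CPM in the erianin libraries. The groups did not overlap, and the 3 DMSO values lay closer together than the erianin values. The group means were 190 ± 1.37 and 107 ± 4.23 CPM (SD, n = 3), so erianin-treated cells held 56.2% of the DMSO level. The log2 fold change was -0.83 (SE 0.07, 95% interval -0.98 to -0.68). This interval covers the spread between libraries and takes no account of the choice of ALDH1A3 for its decrease. These values rest on 16719 reads in the DMSO libraries and 11109 in the erianin libraries. On the length-normalised scale, ALDH1A3 was at 102, 104 and 95.2 transcripts-per-million (TPM) with DMSO and at 67.5, 62.8 and 63.6 TPM with erianin.

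**Figure D1:**
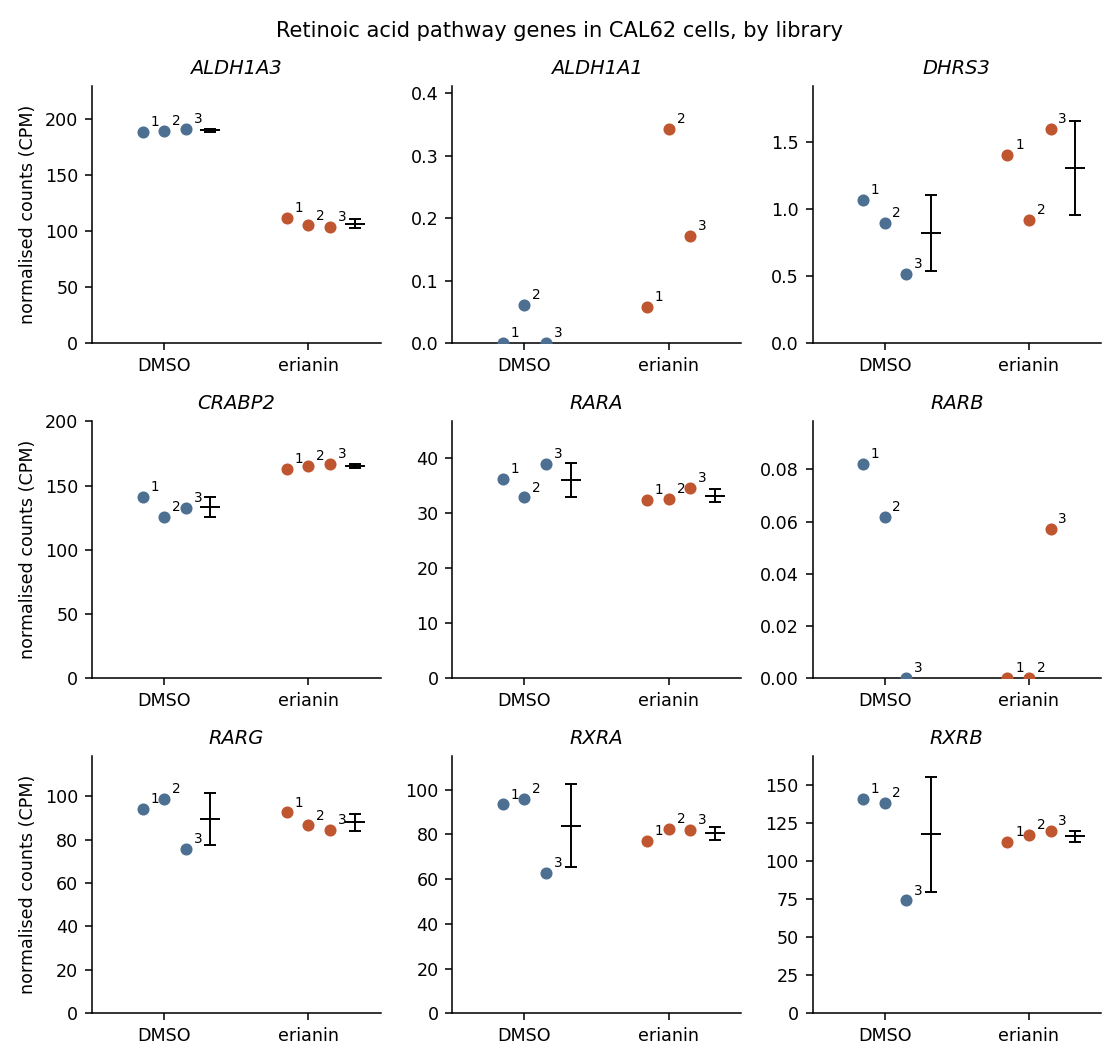
Normalised counts (CPM, linear axes from 0) of the 9 genes in each DMSO (blue) and erianin (orange) library, numbered by replicate; bars show mean ± SD for genes with over 100 reads in all. ALDH1A3 separated by group with all DMSO values near 190 CPM, CRABP2 was higher in every erianin library, and RARG, RXRA and RXRB were lowest in DMSO replicate 3.

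A gene was called changed at an adjusted p below 0.05 over all 12821 tested genes together with an absolute log2 fold change above 0.5. By this rule 688 genes were called higher and 431 lower, 8.73% in either direction, 5.37% higher and 3.36% lower. Limma on log2(TPM + 1) divided the calls differently, with 1098 higher and 94 lower, and the median log2 fold change of all genes stood at 0.17 on that scale. ALDH1A3 was among the genes called lower, from which nothing is read, since it was selected on this contrast. Of the 12821 tested genes, 131 had a lower log2 fold change than ALDH1A3. Among the 2199 genes with a mean of at least 100 CPM, 7 did so. These ranks use the values by which ALDH1A3 was selected and are a description only, as is the range that follows. The log2 fold change of ALDH1A3 was -0.83 without DMSO replicate 3 and ranged from -0.88 to -0.63 over 17 other processing settings. After subtracting the median of all genes in each setting the range was -0.89 to -0.74.

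**Figure D2:**
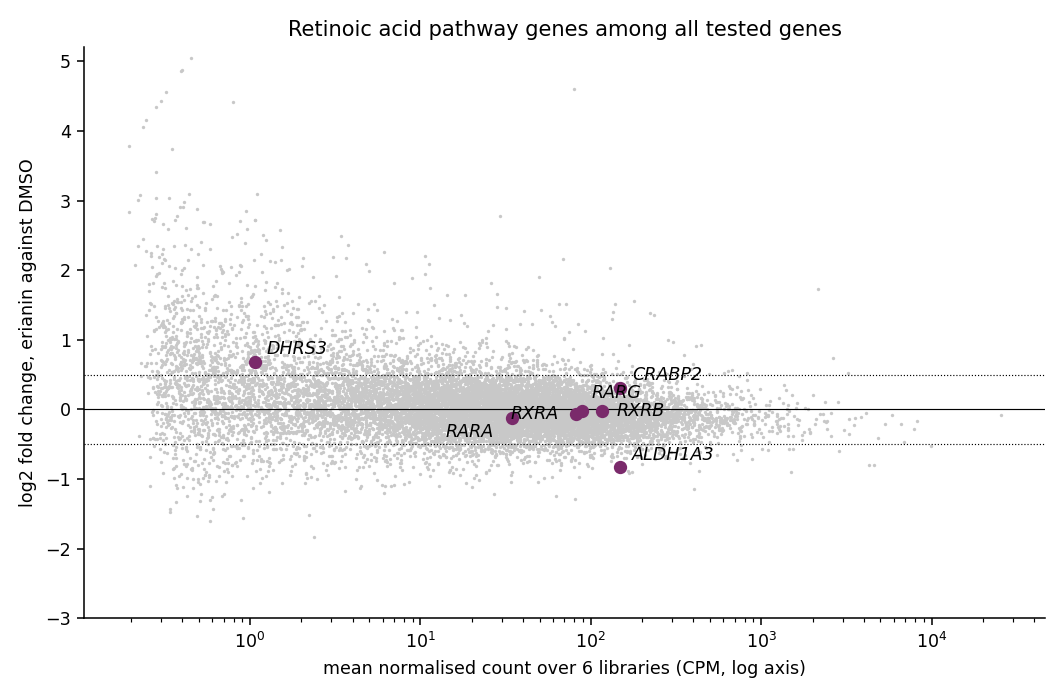
Log2 fold change of erianin against DMSO by mean normalised count (CPM, log axis) for all 12821 tested genes (grey) and the 7 tested retinoic acid pathway genes (purple); dotted lines mark 0.5 and -0.5. ALDH1A3 lay at -0.83 below most genes of similar abundance, CRABP2 at 0.31 above, and the receptors lay near 0.

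The other ALDH1A enzymes were scarcely expressed. ALDH1A1 (ENSG00000165092), the dehydrogenase most often linked to stem-like tumour cells, had 0, 2 and 0 reads with DMSO and 2, 12 and 6 reads with erianin. The groups overlapped at 2 reads, and the gene did not pass the filter on low counts. ALDH1A2, the main enzyme of this step in the embryo, had 48 reads in the DMSO libraries and 80 in the erianin libraries, with a log2 fold change of 0.48 (SE 0.34, adjusted p = 0.393). ALDH1A3 accordingly made up 99.9% of the summed ALDH1A TPM in each DMSO library and 99.7%, 99.1% and 99.5% in the erianin libraries. The summed ALDH1A transcript level thus followed ALDH1A3 in every library.

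DHRS3 (ENSG00000162496), which reduces retinal back to retinol and is itself a retinoic acid target, was at 1.07, 0.894 and 0.514 CPM with DMSO and at 1.41, 0.916 and 1.60 CPM with erianin. The groups overlapped, and the lowest value was that of DMSO replicate 3. The log2 fold change was 0.68 (SE 0.34, 95% interval -0.12 to 1.48, adjusted p = 0.227), from 71 and 136 reads, and 0.42 without DMSO replicate 3 (adjusted p = 0.287). At this depth a change in DHRS3 could not be resolved in either direction.

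CRABP2 (ENSG00000143320), the carrier that hands retinoic acid to RARs, was at 141, 126 and 132 CPM with DMSO and at 163, 166 and 167 CPM with erianin. All erianin values lay above all DMSO values, which was the case in one or the other direction for 38.7% of all tested genes. CRABP2 was higher by a log2 fold change of 0.31 (SE 0.07, 95% interval 0.15 to 0.48, edgeR adjusted p = 0.026), to 124% of the DMSO level, and so passed the adjusted p that 14.9% of tested genes passed but not the fold threshold. Without DMSO replicate 3 the log2 fold change was also 0.31 (adjusted p = 1.36e-06), and over the 6 fits that left out a library it was 0.27 to 0.35 with an adjusted p of up to 0.13, above 0.05 in 4 of them. On the TPM scale it was at 261, 234 and 225 TPM with DMSO and at 337, 338 and 350 TPM with erianin. Limma on log2(TPM + 1) called it higher at 0.51 (adjusted p = 0.0124), as it called 10.2% of genes in either direction, and 0.34 of that difference remained after subtracting the median of all genes.

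FABP5, which carries retinoic acid to PPARD instead, was named after its values were seen. It was at 32.3, 26.2 and 33.1 CPM with DMSO and at 41.5, 42.6 and 43.0 CPM with erianin. It was higher by a log2 fold change of 0.47 (SE 0.11, adjusted p = 0.0283) and passed the fold threshold without DMSO replicate 3, at 0.54 (adjusted p = 2.18e-07), while its adjusted p was above 0.05 in the 5 other fits that left out a library, at up to 0.126. Neither carrier was called. The ratio of CRABP2 to FABP5 in TPM was 4.25, 4.66 and 3.88 with DMSO and 3.83, 3.78 and 3.77 with erianin. PPARD, the receptor on the FABP5 route, differed by 0.06 (SE 0.07, adjusted p = 0.64).

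RARA (ENSG00000131759), the most widely expressed RAR, was at 36.1, 32.8 and 38.9 CPM with DMSO and at 32.3, 32.5 and 34.5 CPM with erianin. The groups overlapped, and the log2 fold change was -0.12 (SE 0.10, 95% interval -0.34 to 0.10, adjusted p = 0.452), turning to 0.08 on log2(TPM + 1).

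RARG (ENSG00000172819), the RAR best known from skin, was at 94.1, 98.7 and 75.9 CPM with DMSO and at 92.5, 86.5 and 84.6 CPM with erianin. The DMSO values spanned those of erianin. The log2 fold change was -0.03 (SE 0.11, 95% interval -0.28 to 0.23, adjusted p = 0.899), turning to 0.17 on log2(TPM + 1) and to 0.03 with upper-quartile factors.

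RARB (ENSG00000077092), a target that retinoic acid induces through the repeat printed above, had 2, 2 and 0 reads with DMSO and 0, 0 and 2 with erianin. It did not pass the filter, and no difference could be detected at this depth. RARG made up 60.9% to 70.6% of the summed RAR TPM in the DMSO libraries and 66.2% to 69.6% in the erianin libraries, with RARA nearly all of the rest.

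RXRA (ENSG00000186350), a common partner of RARs, was at 93.4, 95.9 and 62.6 CPM with DMSO and at 77.1, 82.4 and 82.1 CPM with erianin. DMSO replicate 3 lay below all erianin libraries and the other DMSO libraries above them. The log2 fold change was -0.06 (SE 0.16, 95% interval -0.43 to 0.31, adjusted p = 0.837), turning to 0.16 on log2(TPM + 1).

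RXRB (ENSG00000204231), the RXR with the highest TPM here, was at 141, 138 and 74.3 CPM with DMSO and at 112, 117 and 120 CPM with erianin. The pattern was that of RXRA, with DMSO replicate 3 lowest and the other DMSO libraries highest. The log2 fold change was -0.02 (SE 0.22, 95% interval -0.53 to 0.50, adjusted p = 0.971), turning to 0.23 on log2(TPM + 1) and to 0.04 with upper-quartile factors. RXRB overlaps SLC39A7 (24359 reads with DMSO and 32849 with erianin) on the opposite strand by 244 bases, so reads there cannot be told apart without strand. RXRB made up 61.2% to 66.8% of the summed RXR TPM with DMSO and 65.4% to 66.0% with erianin.

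Leaving out DMSO replicate 3 lowered the estimates of RXRA, RXRB and RARG. They became -0.24 for RXRA (adjusted p = 0.00014), -0.27 for RXRB (adjusted p = 7.17e-06) and -0.14 for RARG (adjusted p = 0.0195). None reached the fold threshold, which with the adjusted p was met by 17.5% of genes in that fit, and 55.2% of genes there passed the adjusted p alone. With CRABP2, 4 of the 6 tested members other than ALDH1A3 passed it. RARA without this library differed by -0.06 (adjusted p = 0.489). The estimates for RXRA, RXRB and RARG thus depended on this library.

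The levels of the 9 genes can be ranked in TPM, which corrects for transcript length. In the DMSO libraries CRABP2 was highest at 240 ± 18.8 TPM (SD, n = 3), then ALDH1A3 at 100 ± 4.46, RXRB at 72.7 ± 26.0, RXRA at 38.8 ± 10.2, RARG at 27.2 ± 4.93 and RARA at 13.6 ± 0.659. DHRS3 at 1.19 ± 0.450 TPM, RARB at 0.0208 and ALDH1A1 at 0.0200 TPM came last. RXRB and RXRA overlapped through DMSO replicate 3, as did RXRA and RARG, and RARB and ALDH1A1 could not be ordered. With erianin the order of ALDH1A3 and RXRB was exchanged, at 64.6 ± 2.49 and 81.5 ± 3.25 TPM, and these values did not overlap. ALDH1A3 was chosen for its decrease, so this exchange is a description only. RXRB was at 88.3, 87.1 and 42.7 TPM with DMSO and at 78.6, 80.8 and 85.0 TPM with erianin.

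Besides ALDH1A3, 54 retinoid genes were examined, namely the other 8 members and a list of 46 genes of uptake, interconversion, breakdown, binding and transcriptional control. Of these, 32 passed the count filter, and 3 (RBP4, ADH7 and CRABP1) were listed at 0 in every library. None of the 32 was called by edgeR or by DESeq2. At an unadjusted p below 0.05 edgeR gave 6 higher and 3 lower, 9 of 32 beside 30.9% of all tested genes. At an adjusted p below 0.05 it gave 2 higher, CRABP2 and FABP5, and 1 lower, 3 of 32 beside 14.9% of all tested genes. The median log2 fold change of the 32 was -0.02, against 0.00 over all tested genes. CRABP2, RDH10, FABP5 and NCOA3 were called higher on log2(TPM + 1), while without DMSO replicate 3 FABP5 and NRIP1 were called higher and DHRS4 lower.

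Among the enzymes between retinol and retinal, several had estimates away from 0 that did not pass the adjusted test, and they are named after their values were seen. RDH10, the main retinol dehydrogenase of the embryo, was at 8.29, 9.46 and 6.68 CPM with DMSO and at 11.0, 11.5 and 11.5 CPM with erianin. Its groups did not overlap, and the log2 fold change was 0.48 (SE 0.15, edgeR adjusted p = 0.0679), or 0.34 without DMSO replicate 3 (adjusted p = 0.00891). RDH16, a retinol dehydrogenase with 35 reads with DMSO and 111 with erianin, had the highest estimate of this step, at 1.43 (SE 0.57, adjusted p = 0.134), and its groups overlapped. RDH11, a retinal reductase, differed by 0.24 (SE 0.08, adjusted p = 0.0799). DHRS4, also a retinal reductase, was at 25.0, 21.5 and 19.1 CPM with DMSO and at 16.0, 15.7 and 17.4 CPM with erianin, a log2 fold change of -0.42 (SE 0.12, adjusted p = 0.0641) that became -0.50 and was called lower without DMSO replicate 3 (adjusted p = 8.49e-06). ADH5, better known as a formaldehyde-detoxifying enzyme, differed by -0.03 (SE 0.16, adjusted p = 0.922), turning to 0.19 on log2(TPM + 1) and to 0.02 with upper-quartile factors, and -0.21 without DMSO replicate 3 (adjusted p = 8.96e-05).

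The enzymes that break down retinoic acid differed in abundance. CYP26B1 was at 22.3 ± 1.39 CPM with DMSO and 21.2 ± 0.399 CPM with erianin (SD, n = 3), a log2 fold change of -0.08 (SE 0.09, adjusted p = 0.635). CYP26A1, the most sensitive retinoic acid target in many cells, had 0 reads in each DMSO library and 4, 4 and 6 reads in the erianin libraries. It was below the count filter. A count of 0 over the DMSO group allows up to 0.0331 CPM (3 reads of 90721570), and the mean of 0.134 CPM with erianin lay above that limit, with no overlap between the groups. In fits without a filter its adjusted p was 0.0811 with edgeR and 0.0293 with limma on log2(TPM + 1).

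NCOR1 encodes a corepressor that unliganded RARs recruit. NCOR1 was at 238 ± 82.2 CPM with DMSO and 170 ± 8.71 CPM with erianin (SD, n = 3), with a log2 fold change of -0.49 (SE 0.21, adjusted p = 0.167) that was -0.17 without DMSO replicate 3 (adjusted p = 0.00161). NCOA3, a coactivator named after its values were seen, was at 0.35 (SE 0.12, adjusted p = 0.093).

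**Figure D3:**
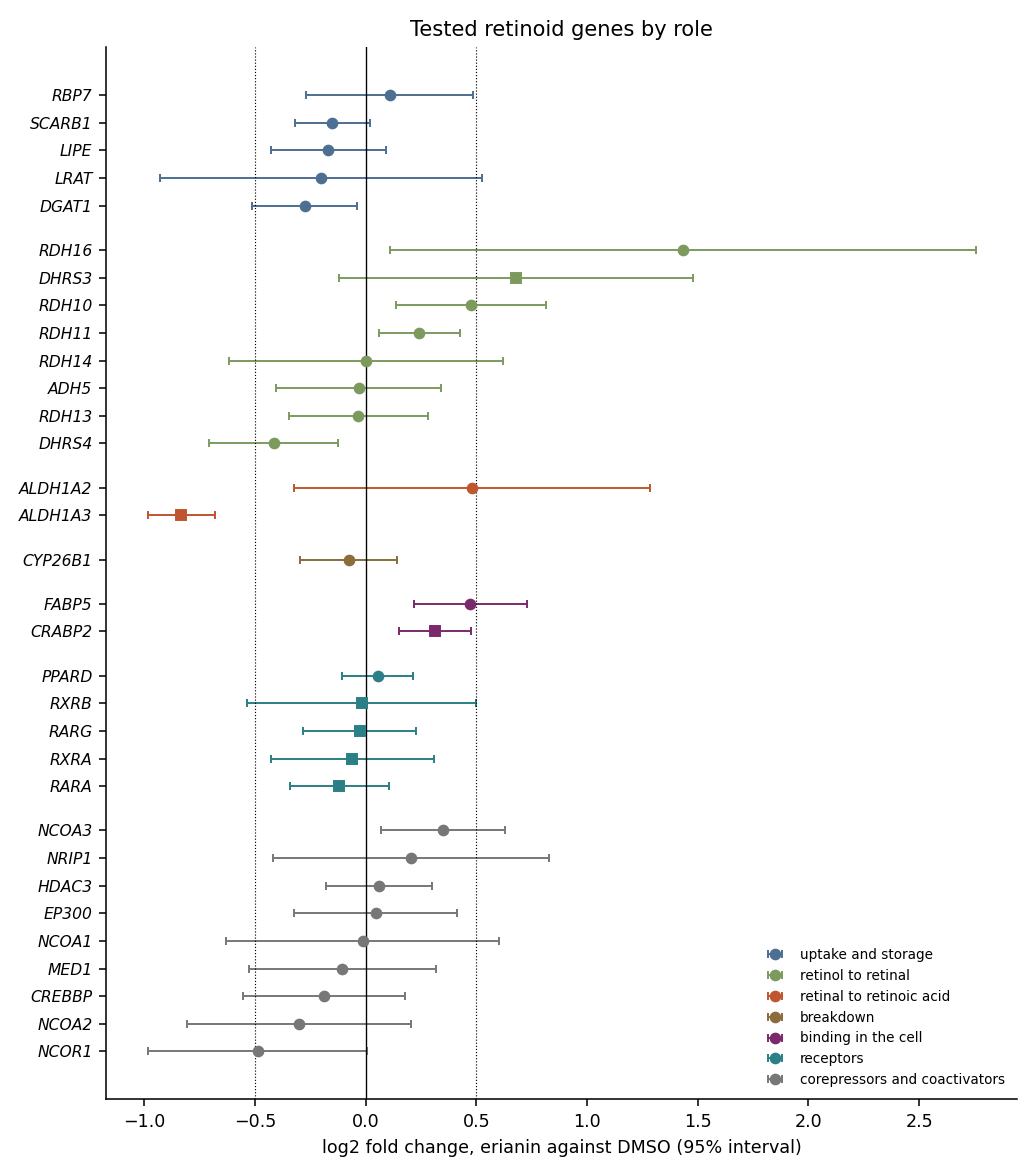
Log2 fold change of erianin against DMSO with 95% intervals for ALDH1A3 and 31 of the 32 other tested retinoid genes, coloured by role; squares are the 7 tested genes of the 9 members, and dotted lines mark 0.5 and -0.5. ALDH1A3, chosen for its decrease, lies at -0.83, CRABP2 and FABP5 at 0.31 and 0.47, and the receptors around 0.

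The list of 23 retinoic acid targets was drawn from general knowledge of the pathway. Among its 15 tested genes edgeR made no call in either direction, whereas DESeq2 called RARRES2, named here for that reason, lower. RARRES2 had 79 reads with DMSO and 30 with erianin, an edgeR log2 fold change of -1.60 (SE 0.47, adjusted p = 0.0609). Without DMSO replicate 3 edgeR called RARRES2 lower and NRIP1 higher, and on the 3 TPM settings limma called CRABP2 higher. At an unadjusted p below 0.05, edgeR gave 1 higher and 3 lower of the 15, beside 30.9% of all tested genes. The adjusted p below 0.05 was passed by CRABP2 upwards and by TGM2 and ICAM1 downwards, 3 of 15 genes beside 14.9% of all tested genes. TGM2, a transglutaminase that retinoic acid induces in many cells, was at 2064, 1991 and 1799 CPM with DMSO and at 1523, 1502 and 1493 CPM with erianin. Its log2 fold change was -0.37 (SE 0.08, adjusted p = 0.0195), under the fold threshold. ICAM1, an adhesion molecule that many inflammatory signals also induce, was at 834 ± 8.95 CPM with DMSO and 697 ± 14.1 CPM with erianin (SD, n = 3), a log2 fold change of -0.26 (SE 0.06, adjusted p = 0.0337). Both missed the adjusted p in 5 of 6 fits that left out a library, at up to 0.106 for TGM2 and 0.169 for ICAM1, and passed it without DMSO replicate 3. On log2(TPM + 1) their values were -0.17 and -0.06, or -0.35 and -0.24 after subtracting the median of all genes, and neither passed the adjusted p. Over the tested targets the median log2 value was -0.08.

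Within the aldehyde dehydrogenase family, 14 of 19 genes were tested. Of the 13 tested genes other than ALDH1A3, 9 had estimates below 0, beside 49.7% of all tested genes. Their median on the log2 scale was -0.11, and 4 of 13 passed the adjusted p, beside 14.9%. ALDH3A2, the fatty aldehyde dehydrogenase, stood on the other side, at 24.2, 23.8 and 19.9 CPM with DMSO and at 28.7, 28.6 and 28.8 CPM with erianin, a log2 fold change of 0.34 (SE 0.10, edgeR adjusted p = 0.0679). It was named after its values were seen. ALDH3B1, which acts on aldehydes from lipids, was called lower, at 38.2, 40.8 and 30.4 CPM with DMSO and at 24.2, 23.7 and 24.1 CPM with erianin. Its log2 fold change was -0.60 (SE 0.12, edgeR adjusted p = 0.0186), and the call was lost in 5 of 6 fits that left out a library (adjusted p up to 0.0943), remaining only without DMSO replicate 3. ALDH1B1, ALDH5A1 and ALDH7A1, mainly mitochondrial enzymes, passed edgeR's adjusted p at log2 fold changes of -0.36, -0.50 and -0.35 but not the fold threshold, ALDH1B1 and ALDH7A1 losing it in 5 of 6 fits that left out a library. ALDH5A1 lay at the threshold and was called lower by DESeq2, with RLE factors, without the low-count filter, with the GC offset and without DMSO replicate 3. ALDH18A1, needed for proline synthesis, differed by -0.04 (adjusted p = 0.766), by 0.16 on log2(TPM + 1) and by -0.12 without DMSO replicate 3 (adjusted p = 0.015), and ALDH9A1 by 0.15 (adjusted p = 0.427). ALDH1A3 made up 18.1%, 18.4% and 21.0% of the family's summed TPM with DMSO and 12.9%, 12.5% and 12.5% with erianin. These shares use the values by which ALDH1A3 was selected and are a description only.

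Genes around ALDH1A3 on chromosome 15 did not move together. LRRK1, a kinase gene that starts 2.588 kb past the end of ALDH1A3 on the same strand, fell from 93.9, 96.6 and 95.5 CPM to 60.5, 62.6 and 55.6 CPM. It was called lower at a log2 fold change of -0.68 (SE 0.08, edgeR adjusted p = 0.00344), also in each of 6 fits that left out a library, and stood at -0.45 on log2(TPM + 1). PCSK6, encoding a proprotein convertase 380.515 kb away on the opposite strand, was called lower at -1.17 (SE 0.16, adjusted p = 0.00567), from 4.98 ± 0.164 to 2.22 ± 0.321 CPM (SD, n = 3).

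SNRPA1, a spliceosome component, and LINS1 lay on the other side of 0. SNRPA1 rose from 50.7, 54.5 and 53.4 CPM to 83.4, 77.7 and 76.7 CPM and was called higher at 0.58 (SE 0.08, adjusted p = 0.00504), falling to 0.41 and under the fold threshold with an offset for GC content. LINS1 was called higher at 0.70 (SE 0.14, adjusted p = 0.0175), from 5.67 ± 0.644 to 9.26 ± 0.879 CPM, and lost the call in 5 of 6 fits that left out a library (adjusted p up to 0.0957). ASB7 at 0.11 (adjusted p = 0.428, and -0.02 with the GC offset) and CHSY1 at -0.04 (adjusted p = 0.826, and 0.15 on log2(TPM + 1)) were not called. Of the 9 neighbours 6 were tested. CERS3 had 0 reads with DMSO and 11 with erianin. ALDH1A3-AS1, which overlaps ALDH1A3 by 23768 bases on the opposite strand, and SELENOS were listed at 0 in every library. Whether their RNA was absent was not tested, and the annotation and strand setting behind the counts are not given in the sources used here.

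**Figure D4:**
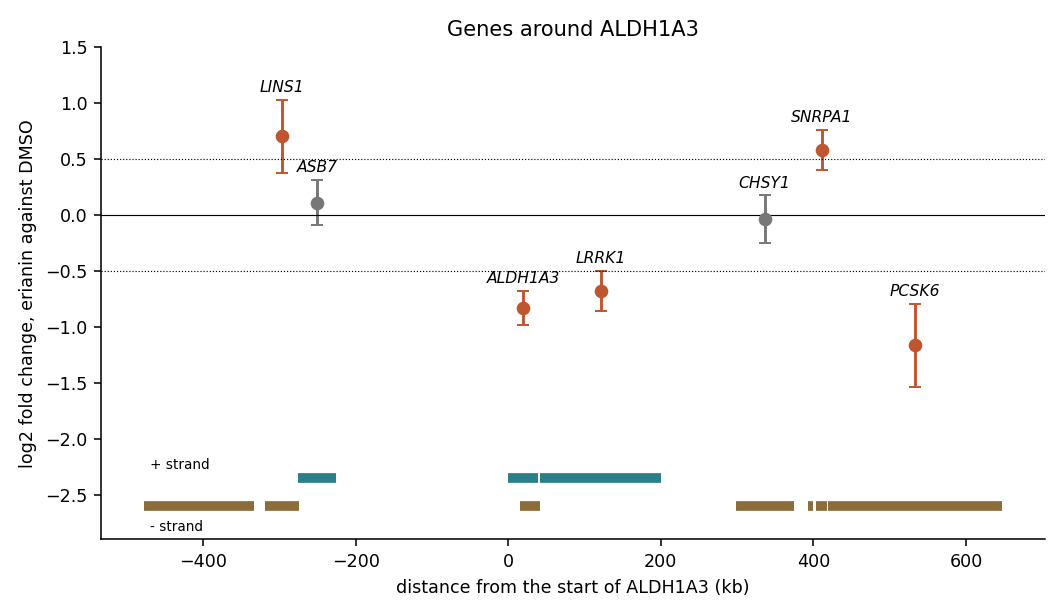
Log2 fold change of erianin against DMSO with 95% intervals for tested genes by distance from the start of ALDH1A3 (kb); orange points were called changed, grey points were not, and bars at the bottom show every gene's extent by strand. LRRK1 (-0.68) and PCSK6 (-1.17) were lower as ALDH1A3 was, while LINS1 (0.70) and SNRPA1 (0.58) were higher. ALDH1A3 was chosen for its decrease, of which its interval takes no account.

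The genes whose values across the 6 libraries were most like those of ALDH1A3 were found by the Euclidean distance between centred log2 CPM profiles over 8542 genes with a mean of at least 10 CPM. The nearest were MAVS (distance 0.11), PLXNA2 (0.11), ARAP3 (0.13), FAM78A (0.13) and MAP2K5 (0.13). MAVS was at 469, 485 and 485 CPM with DMSO and at 282, 286 and 274 CPM with erianin. PLXNA2 was at 204, 224 and 211 CPM and at 121, 115 and 112 CPM. The log2 fold changes of the 5 genes ran from -0.88 to -0.77. This range follows from choosing the genes by their likeness to ALDH1A3. So does a DMSO replicate 3 that, as for ALDH1A3, did not depart from the other DMSO libraries.

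**Figure D5:**
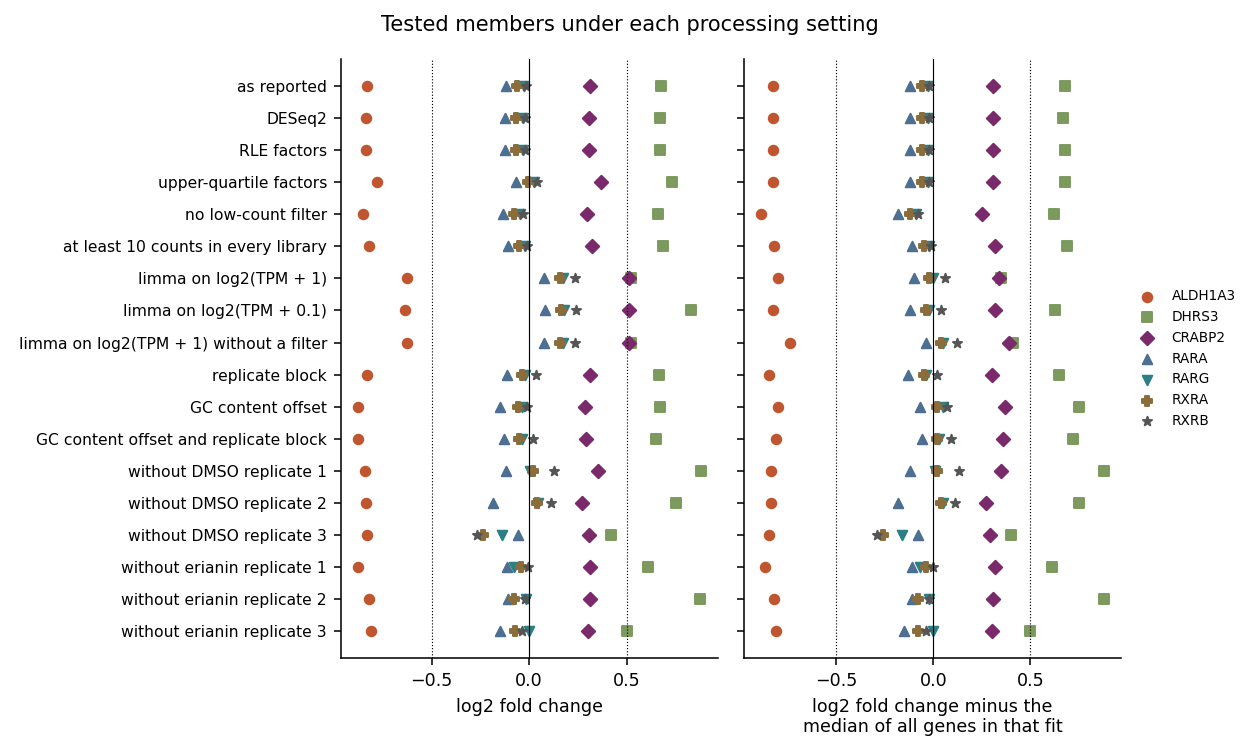
Log2 fold change of erianin against DMSO for the 7 tested genes under the reported fit and 17 other settings, as estimated (left) and minus the median of all genes in that fit (right); dotted lines mark 0.5 and -0.5. As estimated, ALDH1A3 stayed between -0.88 and -0.63 and CRABP2 between 0.27 and 0.51, while RARA, RARG, RXRA and RXRB changed sign with the TPM scale. RARG, RXRA and RXRB also changed sign as estimated without DMSO replicate 1 or 2, but not without DMSO replicate 3.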

How the data were processed

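Raw counts of reads and TPM values were deposited by the authors for each gene in 6 libraries. The submitters' processing notes name fastp 0.23.2, STAR 2.7.10, featureCounts 2.0.1, StringTie 2.2.1 and GRCh38. The annotation and strand setting are not given in the sources used here. Rows without an identifier (26480 of 65807, at most 0.00515% of counts) were left out. Of rows sharing an identifier (159 identifiers) that with most counts was used. The TPM columns summed to 59.1% to 78.3% of a full TPM total. By replicate the sums were 73.45%, 72.59% and 59.09% with DMSO and 77.22%, 75.14% and 78.29% with erianin. TPM values were used without rescaling, so group differences on that scale carry these unequal totals. Their part in each result was not tested. Counts were tested with edgeR 4.0.16 (TMM, filterByExpr, glmQLFTest, R 4.3.3, no covariate), and Benjamini-Hochberg adjustment ran over all 12821 tested genes. DESeq2 1.42.0, limma 3.58.1 on log2(TPM + 1 or 0.1), other factors, filters, a GC offset, a replicate block and leaving out each library were alternatives, and the code was tested on simulated data. The text names the 9 members, each list's called genes with the 3 of highest mean CPM among the rest, and the 5 genes most like ALDH1A3 in profile. Other names fall outside this rule, and only some are marked above as named after their values were seen. ALDH1A2, PPARD, CYP26A1, CYP26B1, ALDH1B1 and ALDH5A1 fall outside it without such a mark. The members and lists were chosen with earlier results of these data known. Positions are from GENCODE 29. Some genes are not reported here.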

Additional observations from a re-analysis of the deposited data

How the results depend on the processing

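ALDH1A3 stayed below 0 in all 17 settings tried, which used the libraries in which it was chosen for its decrease. The causes of the shifts below were not tested. The counts of genes called higher (688) and lower (431) became 1098 and 94 on log2(TPM + 1), 1207 and 110 on log2(TPM + 0.1), 1057 and 88 on log2(TPM + 1) without a filter, and 384 and 281 with a replicate block. With a GC offset 684 were called lower, and without the fold threshold 986. Leaving out each library gave 172 to 1485 higher and 126 to 797 lower, the highest of each without DMSO replicate 3. Retinoid genes called higher (0) became 2 with upper-quartile factors, 4 on log2(TPM + 1), 4 on log2(TPM + 0.1), 3 without a filter on TPM, 2 without the fold threshold and 0 to 2 leaving out a library; those called lower (0) became 1 without the fold threshold and 0 to 1 leaving out a library. On the 3 TPM settings signs reversed for RARA (0.08), RARG (0.17 or 0.18), RXRA (0.16), RXRB (0.23 or 0.24), ADH5 (0.19 or 0.20), ALDH18A1 (0.16) and CHSY1 (0.15 or 0.16), and with upper-quartile factors for RARG (0.03), RXRB (0.04), ADH5 (0.02), ALDH18A1 (0.01) and CHSY1 (0.01). ASB7 was -0.02 with the GC offset, alone or with the replicate block, and RXRB 0.04 with the replicate block and 0.02 with both. Leaving out a library gave -0.14 to 0.04 for RARG, -0.24 to 0.04 for RXRA, -0.27 to 0.13 for RXRB, -0.21 to 0.10 for ADH5 and -0.10 to 0.01 for CHSY1. Deviations from the group means were little correlated between libraries of the same replicate number (0.00, 0.03 and -0.03). With 3 libraries per group and DMSO replicate 3 apart, this cannot settle whether replicates were paired. The replicate block ended the call of ALDH3B1 (edgeR adjusted p = 0.0525). It also took CRABP2 (0.0898), FABP5 (0.0697), TGM2 (0.0619) and ICAM1 (0.117) past an adjusted p of 0.05. Calls were also lost on log2(TPM + 1) for ALDH3B1 (-0.36) and LRRK1 (-0.45), and without a filter on TPM for PCSK6 (-0.33). The TPM settings moved the median of all genes by 0.12 to 0.20 and the GC offset by -0.08. ALDH1A1 and RARB were limited by their few reads, as was CYP26A1, whose adjusted p without a filter was 0.0811 with edgeR and 0.0293 with limma on log2(TPM + 1).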

Other observations

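Of the epithelial and mesenchymal markers, FN1 was called lower and VIM passed the adjusted p but not the fold threshold. FN1, the matrix protein fibronectin, fell from 5817 ± 864 to 3353 ± 254 CPM (SD, n = 3, log2 fold change -0.80, SE 0.12, edgeR adjusted p = 0.00761). VIM, an intermediate filament of mesenchymal cells, was at 1289 ± 194 and 932 ± 21.2 CPM (log2 fold change -0.47, SE 0.11, edgeR adjusted p = 0.03). DMSO replicate 3 was the highest library for both, at 6813 CPM for FN1 and 1511 CPM for VIM. Of 6 fits that left out a library, FN1 missed the adjusted p in 2 and VIM in 4. The epithelial keratins KRT8 and KRT18 differed by 0.01 (adjusted p = 0.967) and -0.21 (adjusted p = 0.232). EPCAM, an epithelial adhesion molecule, was at 0.26 (SE 0.10, adjusted p = 0.132). CDH1, another epithelial marker, had 5 reads with DMSO and 19 with erianin and did not pass the count filter.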
